A study of Mus musculus with 48 samples.

Results

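The replication-dependent histone genes encode the linker histone H1 and the core histones H2A, H2B, H3 and H4 that package newly made DNA. The members are all genes with a matching symbol (H1f1 to H1f5 and every H2ac, H2bc, H3c and H4c gene), a rule that uses no measured value. Of 67 such symbols in the GENCODE mouse annotation, 53 were measured in cytoplasmic RNA, among 20622 genes in all: 4 H1, 13 H2A, 14 H2B, 10 H3 and 12 H4 genes. Of these, 42 lie on chromosome 13, 8 on chromosome 3, 2 on chromosome 11 and 1 on chromosome 6. Ribosome-protected fragments (RPFs), the stretches of mRNA that a ribosome shields from nuclease, were listed for 51 of the 53, among 16269 genes in the RPF tables. H2ac19 and H3c15 had no RPF line, and 7 genes (H2ac7, H2ac12, H2ac23, H2ac24, H2bc4, H3c13 and H4c17) had a line but no RPF in any mouse. H1f5 and 13 other symbols were not measured.

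The livers came from 24 mice, labelled as male and aged 2 to 4 months, in 8 groups of 3. WT mice carried neither allele, B mice carried Ctnnb1ex3/+ (a β-catenin that escapes degradation once exon 3 is removed), M mice carried R26-LSL-MYC (a MYC transgene behind a stop cassette) and BM mice carried both. Every mouse, WT included, received AAV8.TBG.Cre, in which the TBG promoter restricts Cre to hepatocytes, and livers were taken 4 or 10 days later. Each mouse was a separate replicate and gave 1 RPF and 1 cytoplasmic RNA library, both from lysed ground liver, so that cells other than hepatocytes were present and fewer cells of a type cannot be told apart from less RNA per cell. Total counts per library ran from 9742197 to 14380713 for RPFs and from 3254141 to 6540116 for RNA.

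Replication-dependent histone mRNAs are made in S phase, when DNA is copied, and are the metazoan mRNAs that end in a stem-loop in place of a poly(A) tail. The stem-loop binding protein SLBP holds this stem-loop, directs 3′ end cleavage with the U7 snRNP and then aids translation, and histone mRNAs are degraded quickly when DNA synthesis stops. The RNA libraries were depleted of rRNA and not selected for poly(A), so a missing tail did not exclude these mRNAs. Translation efficiency (TE) below is RPF CPM divided by RNA CPM, where CPM is the usual unit of counts scaled to library size, here after TMM adjustment. A change in TE was tested as the interaction of genotype and library type.

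The stem-loops are shown because they are the feature that these mRNAs share and that the choice by name did not use. A perfect 6-base stem that starts with GG and closes a 4-base loop was found within 120 bases after the stop codon in 45 of the 53 genes (GENCODE vM39 transcripts, GRCm39, transcribed strand) and in 68 of 16119 other transcripts of the RPF tables (0.422%). The search found it in 3 of 4 H1, 11 of 13 H2A, 10 of 14 H2B, 9 of 10 H3 and 12 of 12 H4 genes, in 8 distinct forms. The form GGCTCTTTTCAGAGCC was in 26 genes and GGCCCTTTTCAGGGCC in 7. It was not found in H1f1, H2ac10, H2ac12, H2bc4, H2bc21, H2bc23, H2bc24 or H3c13, but the annotated transcripts of H2ac10, H2ac12, H3c13 and H1f1 end 1, 2, 37 and 48 bases after the stop, so that in H2ac10 and H2ac12 none could have been found. Of 11 histone variant genes searched in the same way, H2ax had one. Several annotated transcripts ran on past the stem-loop, by 1162 bases in H3c14, 1643 in H2ac25 and 4884 in H1f3. RNA was counted over whole transcripts and RPFs only inside the coding sequence. RNA of forms that end elsewhere was therefore not told apart from RNA that ends at the stem-loop. Capitals mark the stem-loop, with 5 bases on each side:
H1f2: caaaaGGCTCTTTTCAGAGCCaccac
H2bc14: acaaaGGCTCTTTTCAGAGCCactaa
H3c14: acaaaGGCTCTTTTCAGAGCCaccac
H4c18: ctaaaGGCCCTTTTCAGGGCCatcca
H2ax: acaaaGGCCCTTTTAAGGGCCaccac

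Copies of a class share sequence, which set how far RPFs could be assigned to 1 gene. RPFs of 30 bases or more were counted inside the coding sequence, leaving out the first 20 and last 10 codons. In that window, 19 of the 53 genes (8 H2A, 5 H2B, 4 H3 and 2 H4) held no 30-base sequence of their own among the transcripts compared, and 8 genes had at least 50% of their 30-base sequences to themselves: the 4 H1 genes (59.0% to 99.4%), H2bc21, H2bc27, H4c14 and H4c16. The 19 genes without a sequence of their own took 95.7% of H2A, 90.2% of H2B, 45.7% of H3 and 60.6% of H4 RPFs, but 60.8%, 37.8%, 74.1% and 16.8% of the RNA counts of these classes. Stretches of 30 coding bases show the problem, 1 set per core class: the gene with most RPFs of the class, a gene with the identical stretch, and a gene that differs in the bases in capitals. Each is a stretch of the counted window where the first and the last of these genes differ most. H2A, coding bases 121 to 150, all on chromosome 13 of GRCm39, H2ac11 at chr13:22226948-22226977 and H2ac24 at chr13:22017496-22017525 on the minus strand, H2ac10 at chr13:23718201-23718230 on the plus strand:
H2ac11: tcggagcgcgtgggcgccggcgccccggtc
H2ac24: tcggagcgcgtgggcgccggcgccccggtc
H2ac10: tcggagcgcgtgggcgccggcgccccggtG
H2B, coding bases 169 to 198, H2bc23 at chr13:21994144-21994173 on the minus strand, H2bc24 at chr13:22018109-22018138 on the plus strand and H2bc7 at chr13:23758167-23758196 on the minus strand:
H2bc23: tccaaggccatgggcatcatgaactcgttc
H2bc24: tccaaggccatgggcatcatgaactcgttc
H2bc7: tccaaggccatgggcatcatgaactcgttT
H3, coding bases 286 to 315, H3c14 at chr3:96154487-96154516, H3c13 at chr3:96176295-96176324 and H3c2 at chr13:23936648-23936677, all on the plus strand:
H3c14: gcgagcgaggcctacctggtggggctgttc
H3c13: gcgagcgaggcctacctggtggggctgttc
H3c2: gcgagcgaggcctacctTgtgggTctgttT
H4, coding bases 61 to 90, H4c18 at chr13:22016239-22016268 on the minus strand, H4c17 at chr13:21996014-21996043 on the plus strand and H4c6 at chr13:23735728-23735757 on the minus strand:
H4c18: aaagtgctgcgcgataacatccagggcatc
H4c17: aaagtgctgcgcgataacatccagggcatc
H4c6: aaGgtTctTcgcgataacatccagggcatc

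In each of these 4 sets, nearly all RPFs were on 1 of the identical copies, whereas RNA counts were spread over all of them. Over the 24 mice, H2ac11 held 23149 RPFs, and H2ac23 and H2ac24, which share its window, held 0, beside 3176, 3177 and 3130 RNA counts. H2bc23 held 49432 RPFs against 2 for H2bc24, with 3172 and 3377 RNA counts. H3c14 held 15692 RPFs against 0 for H3c13, with 14532 and 13708 RNA counts, and H4c18 held 41462 against 0 for H4c17, with 3939 and 3889 RNA counts. H2bc4, the H2B gene with most RNA counts (24416), had no RPF, and every 30-base sequence of its window also occurs elsewhere. The window of H2ac25 is also found in full in Trim17, a gene that is no histone. The TE of a single copy is therefore uncertain as a level, and the sums over each class, which copies of the class cannot distort by trading reads, are given first.

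**Figure D1:**
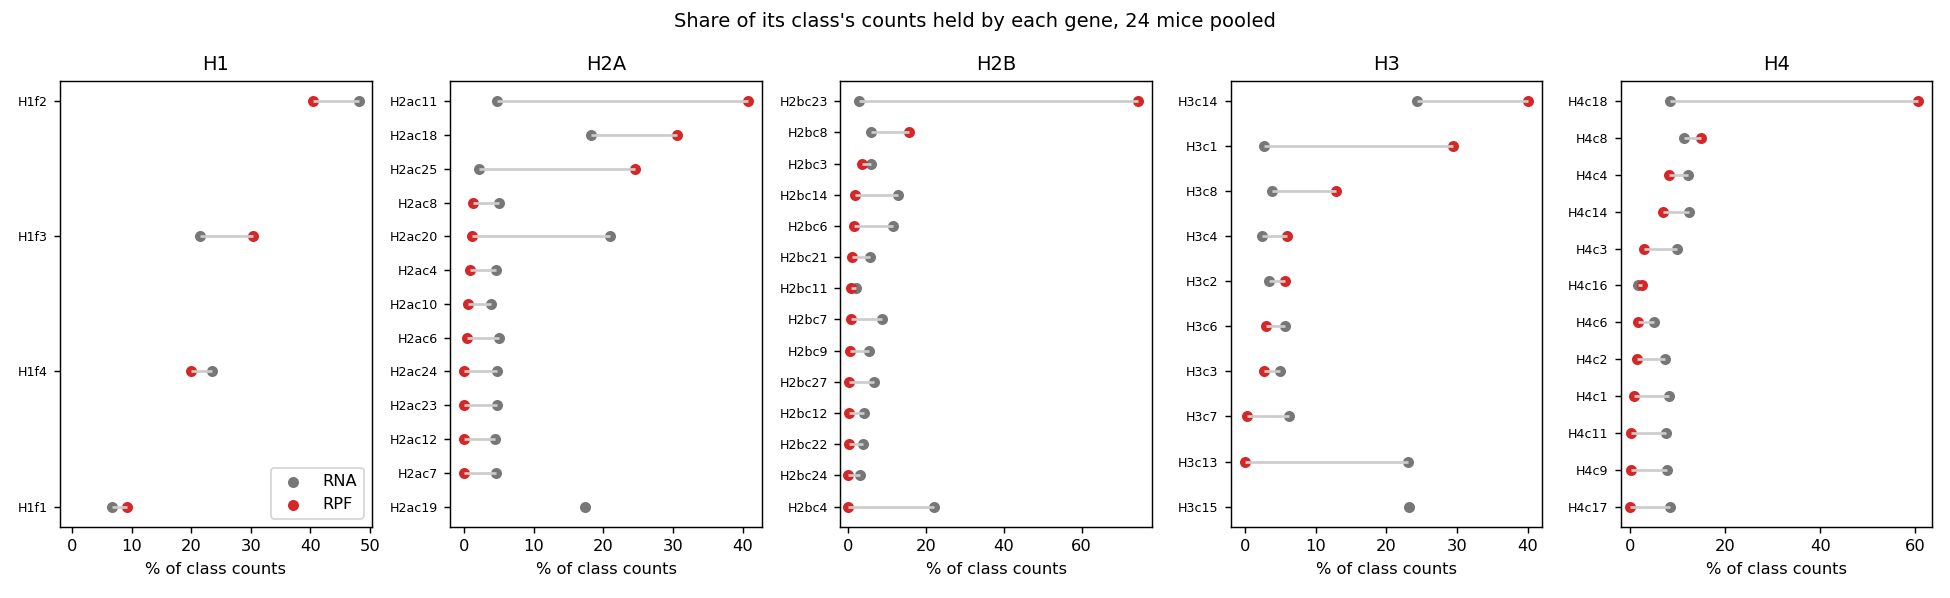
Share of its class's RPF counts (red) and RNA counts (grey) held by each gene, in % over the 24 mice pooled, 1 panel per class; genes with no red point had no RPF line. H2bc23 held about 74% of H2B RPFs and 3% of H2B RNA, and H4c18 about 61% and 8%.

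At day 4, RPFs of all 4 core histone classes rose in M and in BM livers against WT, and those of H2A, H2B and H3 were higher in BM than in M. The RNA sums of these 3 classes were not called against WT in either, and H4 RNA was called in BM. H3 stood apart in size. Its summed RPFs were 40.3, 32.5 and 45.1 CPM in the WT mice, 151, 145 and 128 CPM in the M mice and 470, 208 and 273 CPM in the BM mice. All M mice exceeded all WT mice, and all BM mice exceeded all M mice. The H3 RNA sum was 408, 647 and 560 CPM in WT, 433, 443 and 541 CPM in M and 514, 407 and 542 CPM in BM, so that the groups overlapped and WT mice differed more among themselves than the group means did. H3 RPFs rose by 1.87 ± 0.12 (log2 fold ± SE, n = 3 mice a group) in M (adjusted p = 1.4e-05, edgeR quasi-likelihood test, called below 0.1) and by 3.03 ± 0.25 in BM (adjusted p = 4.77e-06). The corresponding RNA differences were −0.16 ± 0.15 (adjusted p = 0.519) and −0.10 ± 0.16 (adjusted p = 0.65). H3 TE rose by 2.03 ± 0.22 in M (adjusted p = 0.000112) and 3.14 ± 0.34 in BM (adjusted p = 0.000102). No single left-out mouse ended either H3 TE call. Scaling libraries by their total alone moved the median of all genes by 0.42 for RPFs and 0.54 for RNA in BM, and turned the H3 RNA difference to 0.41 (adjusted p = 0.0402), below that median shift. With that scaling H2A RNA (0.60, adjusted p = 0.00342) and H2B RNA (0.39, adjusted p = 0.0252) were also called in BM, and H4 RNA in M (0.51, adjusted p = 0.0034), where the median of all genes moved by 0.36.

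**Figure D2:**
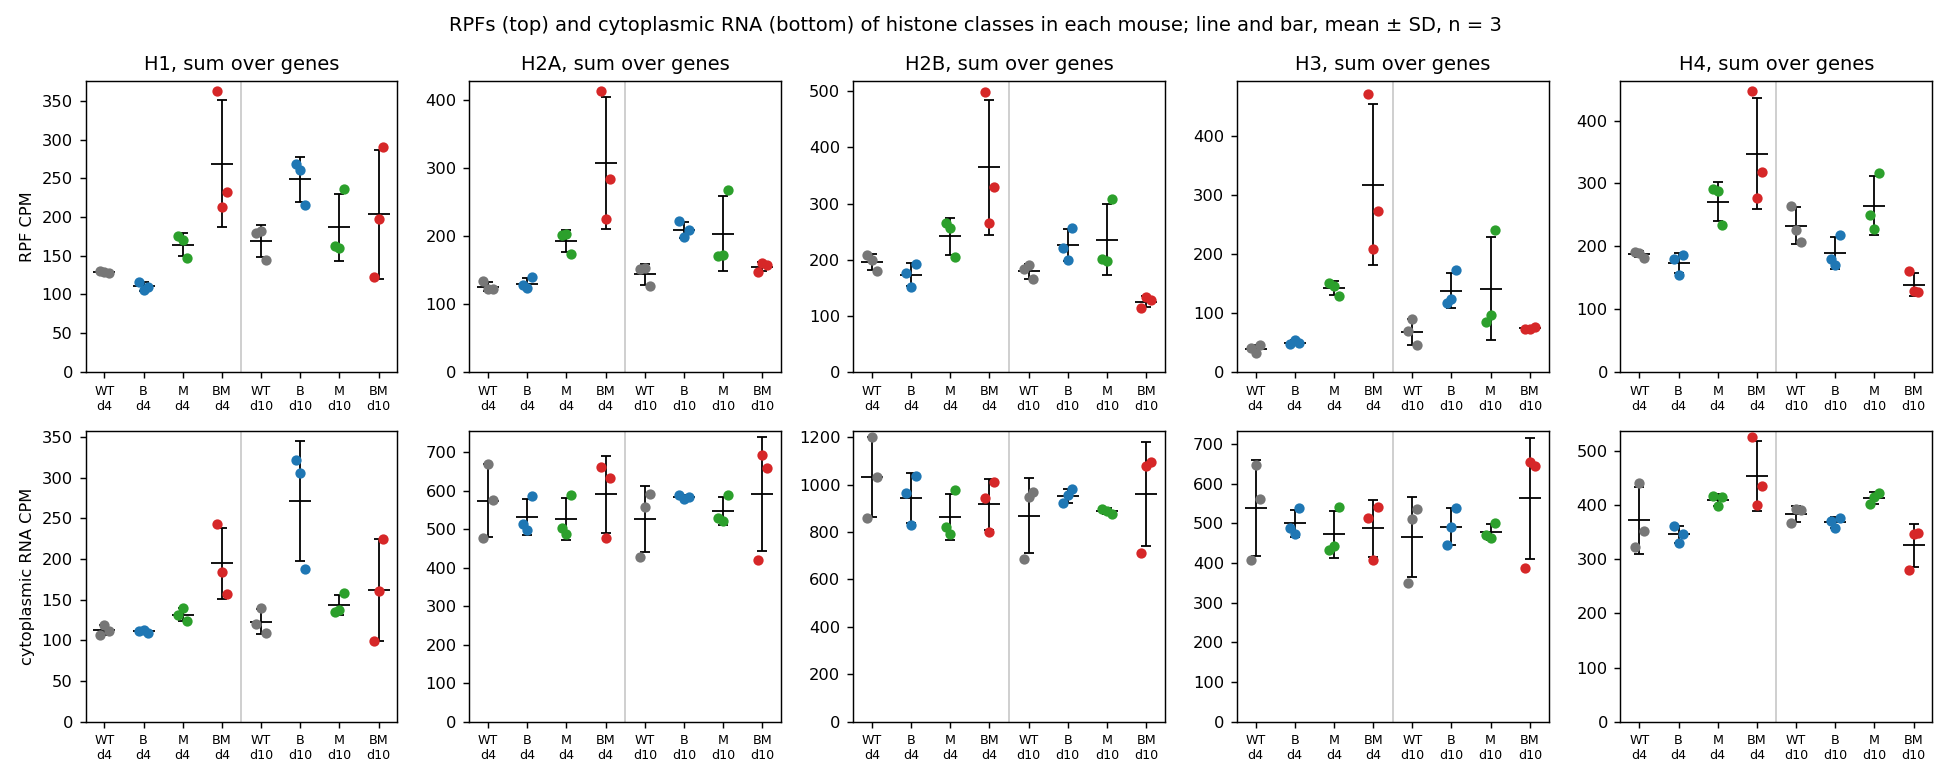
Summed RPF CPM (top) and cytoplasmic RNA CPM (bottom) of each histone class; points are mice, the line and bar the mean ± SD of 3 mice, with genotype and day (d4, d10) on the horizontal axis. For H3, the 3 BM mice of day 4 (208 to 470 RPF CPM) lay above every mouse of the other groups of that day, while the RNA sums of the groups overlapped.

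The other core classes moved the same way at day 4 by smaller amounts. H2A RPFs were 133, 121 and 122 CPM in WT, 201, 203 and 173 CPM in M and 414, 225 and 284 CPM in BM. The H2A groups did not overlap, and H2A RPFs rose by 0.64 ± 0.08 in M (adjusted p = 0.00055) and 1.31 ± 0.17 in BM (adjusted p = 0.000107). H2A TE rose by 0.74 ± 0.17 in M (adjusted p = 0.0546), a call that was lost without WT mouse 2 or 3 or M mouse 1 or 2 (0.59 to 0.72) in the fit of all 24 mice (adjusted p = 0.629), with scaling by total alone (0.61, adjusted p = 0.147) and without the gene with most counts, H2ac11 in RPFs and H2ac20 in RNA (adjusted p = 0.182), and by 1.24 ± 0.25 in BM (adjusted p = 0.0173). H2B RPFs rose by 0.33 ± 0.11 in M (adjusted p = 0.0421) and 0.92 ± 0.18 in BM (adjusted p = 0.0016), and H2B TE rose by 1.05 ± 0.25 in BM (adjusted p = 0.045), a call lost with scaling by total alone (0.95, adjusted p = 0.116). Without WT mouse 2 or 3, the H2A and H2B TE calls in BM were both lost (adjusted p = 0.132 to 0.264), at 0.93 to 1.21 on the log2 scale, and the H2B RPF call in M was lost without WT mouse 3 or M mouse 1 or 2 (0.25 to 0.29) and in the fit of all 24 mice (adjusted p = 0.328). In M the H2B TE difference was 0.56 ± 0.18 (adjusted p = 0.341), and it was called once each mouse was entered as a block (adjusted p = 0.0419). H4 RPFs rose by 0.56 ± 0.09 in M (adjusted p = 0.00165) and 0.91 ± 0.14 in BM (adjusted p = 0.000332). H4 was the one core class whose RNA sum was also called in BM, at 0.33 ± 0.13 (adjusted p = 0.0721), a call lost with DESeq2 (0.29, adjusted p = 0.104) and without WT mouse 1 or 3 or BM mouse 1 (0.22 to 0.29). Its TE difference in BM was 0.59 (adjusted p = 0.305), called with the mouse block (adjusted p = 0.00189).

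For H1, RNA was called higher along with RPFs in both M and BM. H1 RPFs rose by 0.37 ± 0.08 in M (adjusted p = 0.0073) and 1.08 ± 0.16 in BM (adjusted p = 0.000262), and H1 RNA rose by 0.26 ± 0.09 (adjusted p = 0.0706) and 0.83 ± 0.13 (adjusted p = 0.000249). In M, the RNA call was lost with DESeq2 (adjusted p = 0.172) and without WT mouse 1 or 3 or M mouse 1 or 2 (0.21 to 0.26), and both calls were lost in the fit of all 24 mice (adjusted p = 0.362 for RPFs and 0.554 for RNA). The H1 TE differences were 0.11 ± 0.12 (adjusted p = 0.959) and 0.25 ± 0.24 (adjusted p = 0.852). The difference between H1 and the core classes was itself not tested. Summed over all 53 genes, the mean RPF level was 1.49 times that of WT in M and 2.37 times in BM, and the mean RNA level 0.914 and 1.01 times. With scaling by total alone, which moved the median of all genes as given above, the RPF levels were 1.77 and 3.23 times those of WT, and the RNA level turned higher than WT in M and was 1.48 times WT in BM.

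**Figure D3:**
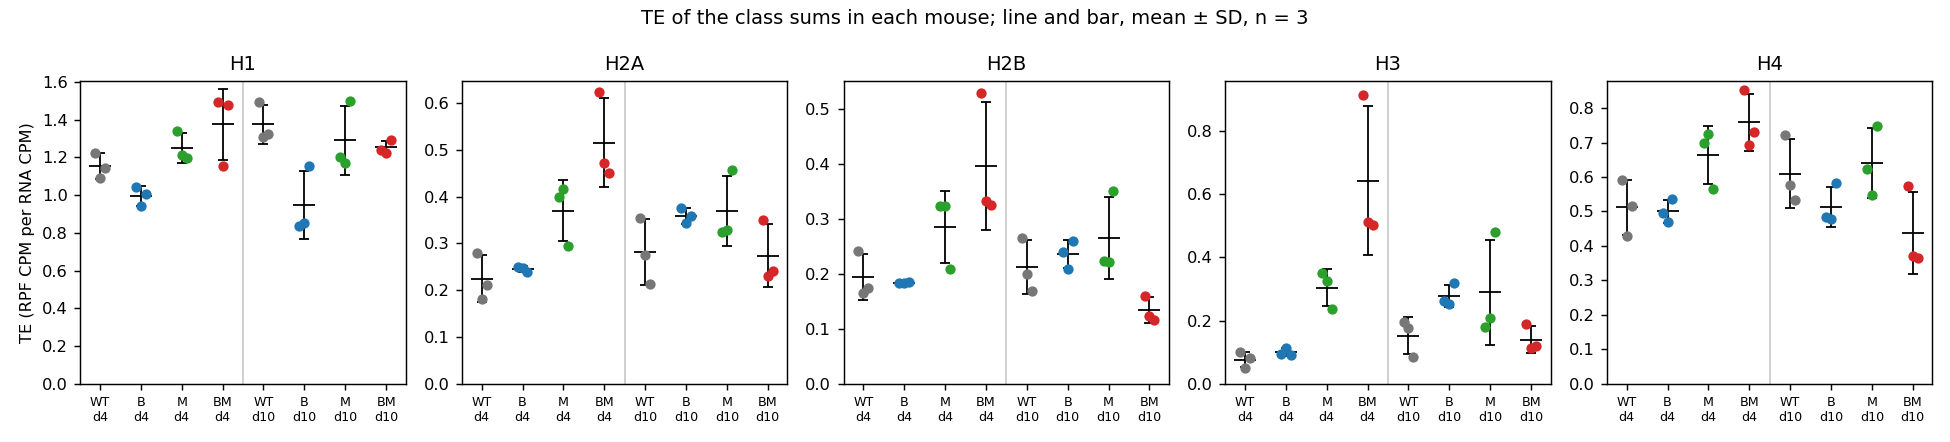
TE of each class sum (RPF CPM per RNA CPM) in each mouse, with the mean ± SD of 3 mice. H3 TE was 0.0502 to 0.0989 in the WT mice of day 4, 0.238 to 0.349 in M and 0.504 to 0.915 in BM, without overlap, and 0.112 to 0.188 in the BM mice of day 10.

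Gene by gene, 34 of the 51 genes with an RPF line had enough RPFs to be tested in M against WT at day 4. RPFs of 29 rose and of 1, H1f2, fell (−0.34, adjusted p = 0.0501), where 18.3% and 14.7% of all 11168 genes tested were called higher and lower. The H1f2 fall was not called in 3 of 6 leave-one-out fits, in the fit of all 24 mice or with scaling by total alone. A count of 10 in the M mice alone let a gene pass, so that a low gene could enter only by rising. Of the 24 that passed on their WT counts, 19 rose and 1 fell. RNA rose for 5 and fell for 2 of 53 genes (14% and 9.67% of all genes). TE rose for 17 of 34, and 8 of 23 that passed on their WT counts, beside 0.879% of all genes called higher. Over the genes that passed on WT counts, the median log2 change was 0.73 for RPFs, −0.05 for RNA and 0.82 for TE, beside 0.01, 0.01 and −0.01 over all genes. The count of 17 fell to 8 without WT mouse 3 and to 6 when all 24 mice were fitted together, and was 20 with each mouse entered as a block. Without WT mouse 1, 12 RNA values were called lower. With scaling by total alone, 23 RNA values were called higher and none lower.

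In BM livers at day 4, RPFs rose for 35 of 38 tested genes and fell for none, beside 27.1% of all genes called higher. Of the 25 that passed on WT counts, 23 rose. By class, those that rose among these 25 were 3 of 4 H1, 3 of 3 H2A, 3 of 4 H2B, 6 of 6 H3 and 8 of 8 H4 genes. RNA rose for 13 of 53 and fell for 1, H2bc4, beside 23.3% and 18.8% of all genes. The histone share with raised RNA was thus near that of all genes. TE rose for 22 of 38 (11 of 24 that passed on WT counts), beside 1.66% of all genes called higher: 6 H2A, 7 H2B, 7 H3, 2 H4 and no H1 genes, or 2 of 3, 2 of 4, 6 of 6, 1 of 8 and 0 of 3 of those that passed on WT counts. Over the genes that passed on WT counts, the medians were 1.42 for RPFs and 0.22 for RNA, beside 0.01 and 0.03 over all genes. The RNA count depended on single mice of both groups: leaving out mouse 1 of WT or of BM gave 5, mouse 3 of WT 8, and mouse 2 of BM or of WT 24 or 25. The RNA count became 6 with DESeq2 and 46 when libraries were scaled by their total alone. The TE count of 22 ran from 15 without WT mouse 2 to 23 without BM mouse 2, and was 30 with the mouse block.

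**Figure D4:**
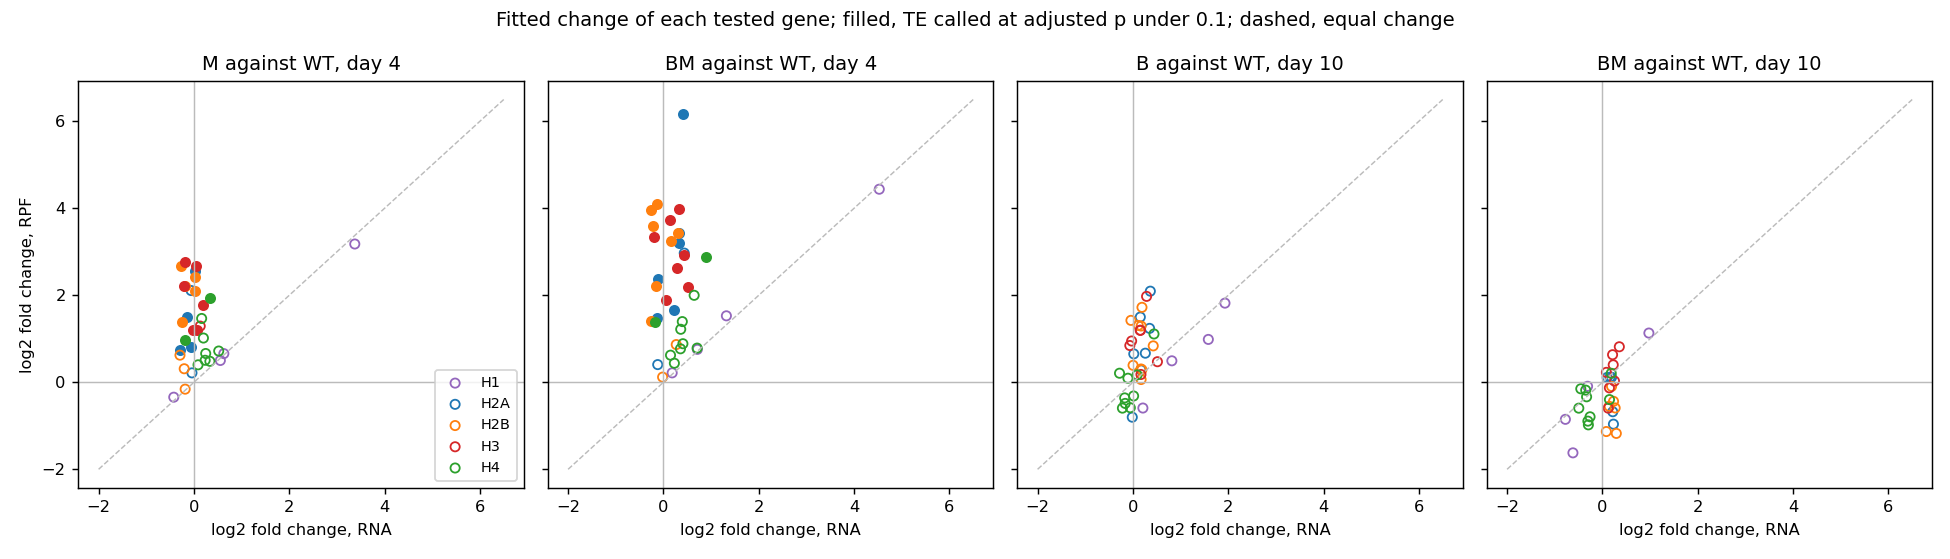
Fitted log2 change of RPFs (vertical) against RNA (horizontal) for each tested histone gene in 4 comparisons with WT, coloured by class; filled points had a TE call at an adjusted p under 0.1 and the dashed line marks equal change. In BM at day 4, the 7 H3 genes lie above the line and are filled, whereas H1f1 (4.44 for RPFs and 4.53 for RNA) and H4c4 (0.79 and 0.71) lie close to it.

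Among H1 genes, H1f1 changed most. Its RPFs were 2.38, 1.94 and 2.93 CPM in WT, 20.9, 20.2 and 23.8 CPM in M and 84, 30 and 41.8 CPM in BM. Its RNA was 2.05, 1.09 and 0.723 CPM, 14.8, 10.2 and 15.5 CPM, and 45.4, 20.7 and 22.2 CPM in the same groups. The 3 groups did not overlap in either library, and both readouts rose alike, by 4.44 ± 0.40 for RPFs (adjusted p = 7.82e-06) and 4.53 ± 0.42 for RNA (adjusted p = 1.64e-06) in BM, with a TE difference of −0.10 ± 0.87 (adjusted p = 0.994). H1f1 was singled out after its values were seen. H1f3 rose by 1.53 ± 0.18 for RPFs and 1.32 ± 0.17 for RNA in BM (adjusted p = 5.02e-05 and 3.83e-05), and H1f4 by 0.76 ± 0.15 and 0.71 ± 0.16 (adjusted p = 0.00212 and 0.00274). H1f2, the H1 gene with most counts, differed by 0.22 ± 0.12 for RPFs in BM (adjusted p = 0.176), and in M its RNA fell by 0.42 (adjusted p = 0.0244). The window of H1f1 is 99.4% unique, while those of H1f2, H1f3 and H1f4 are 59.0% to 65.6% unique and share up to 31.8% with 1 other H1 gene. RNA of H1f1 reached the count minimum through M or BM mice and not on WT counts.

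Among H3 genes, H3c14 showed the pattern of its class. H3c14 RPFs were 12.3, 11.5 and 15.6 CPM in WT, 63.6, 60 and 54.9 CPM in M and 199, 82.5 and 112 CPM in BM at day 4. Its RNA was 96, 156 and 141 CPM, 102, 99.1 and 135 CPM, and 111, 95 and 126 CPM. The RPFs of the 3 groups did not overlap and the RNA did, and TE rose by 2.42 ± 0.24 in M (adjusted p = 6.28e-05) and 3.55 ± 0.37 in BM (adjusted p = 8.82e-05). H3c14 stands here for its identical copies too. H3c2 (TE 2.63 in M and 3.66 in BM), H3c3 (2.95 and 3.60), H3c1 (1.59 and 2.49) and H3c8 (1.15 and 2.35) were called in both. H3c3 in both comparisons and H3c2 in M did not reach the minimum on WT counts, so that they could enter only by rising.

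Of the H2B genes, H2bc14 had ample RNA and few RPFs. Its RPFs were 1.1, 0.727 and 0.789 CPM in WT, 4.3, 4.59 and 3.36 CPM in M and 16.2, 7.16 and 8.36 CPM in BM, and its RNA 104, 154 and 133 CPM, 103, 106 and 127 CPM, and 111, 92.3 and 122 CPM. H2bc14 TE rose by 2.41 ± 0.34 in M (adjusted p = 0.00142) and 3.81 ± 0.46 in BM (adjusted p = 0.00022). H2bc3 (TE 3.14 ± 0.47 in BM, adjusted p = 0.00148) and H2bc11 (3.08 ± 0.47, adjusted p = 0.00184) followed it. H2bc14 and H2bc11 did not reach the minimum on WT counts and entered through the M or BM mice, whereas H2bc3 did reach it in BM against WT. H2bc21, whose window is 86.9% unique and which was picked for that after its values were seen, rose in TE by 1.69 ± 0.39 in BM (adjusted p = 0.0351), with RPFs of 1.74, 1.33 and 1.13 CPM in WT and 5.12, 3.09 and 2.99 CPM in BM. H2bc23, which took most H2B RPFs, rose less, by 0.87 ± 0.18 for RPFs in BM (adjusted p = 0.0024), and its TE difference of 0.60 ± 0.29 was not called (adjusted p = 0.502). H2bc8 differed by 0.12 ± 0.13 for RPFs (adjusted p = 0.489). H2bc4 RNA fell by 0.41 in M and 0.30 in BM (adjusted p = 0.00978 and 0.0269), a direction that turned to 0.22 higher in BM with scaling by total alone. H2bc27, also picked for its unique window (80.3%), had 0, 3 and 2 RPFs in WT and 9, 5 and 5 in BM, too few to be tested.

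A few genes had almost no RPFs in WT and are given as counts. They had at most 3 RPFs in every WT mouse and more than 3 in every BM mouse, so that only rises could be listed. H2bc12 (1, 0 and 0 in WT and 20, 9 and 8 in BM), H2bc22 (2, 0 and 0, and 10, 8 and 7) and H3c7 (1, 2 and 1, and 18, 6 and 10) met the same rule. H2ac10 had 0, 1 and 0 RPFs in the WT mice of day 4, 18, 17 and 8 in M and 74, 27 and 49 in BM. Its share of all RPFs was 122 times that of WT in BM (exact 95% interval 21.7 to 4870, counting error only) and 40.3 times in M (6.85 to 1627). H2bc7 had 3, 3 and 1 RPFs in WT, 17, 26 and 15 in M and 103, 40 and 42 in BM, or 21.6 times the WT share in BM (10.3 to 54.4). H2bc9 had 2, 0 and 3 RPFs in WT and 80, 27 and 40 in BM (24 times, 10.1 to 75.0). As the printed stretches show, H2ac10 and H2bc7 differ from the copies that took most reads by 1 base even in the 30 bases where they differ most.

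Among H2A genes, H2ac11 RPFs were 46.6, 47.9 and 44.6 CPM in WT, 80.6, 83.9 and 75.7 CPM in M and 202, 100 and 131 CPM in BM. The 3 groups did not overlap, and its TE rose by 0.88 ± 0.15 in M (adjusted p = 0.00981) and 1.45 ± 0.29 in BM (adjusted p = 0.0147). H2ac20 (TE 2.47 ± 0.41, adjusted p = 0.0039) and H2ac25 (1.61 ± 0.25, adjusted p = 0.00221) rose in BM as well, though H2ac20 entered only through its BM counts. H2ac18 changed least of the abundant H2A genes, at 0.41 ± 0.14 for RPFs in BM (adjusted p = 0.0379) and 0.53 ± 0.20 for TE (adjusted p = 0.331).

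Of the H4 genes, 2 of 10 tested had a TE call in BM at day 4 (1 of 8 that passed on WT counts), beside 1.66% of all genes called higher. H4c18 RPFs were 121, 116 and 116 CPM in WT and 270, 178 and 195 CPM in BM, with no overlap, a rise of 0.89 ± 0.13 (adjusted p = 0.00024), and its RNA rose by 0.41 ± 0.13 (adjusted p = 0.0298). H4c4 rose by 0.79 ± 0.16 for RPFs and 0.71 ± 0.14 for RNA in BM (adjusted p = 0.00186 and 0.00126), leaving a TE difference of 0.08 ± 0.23 (adjusted p = 0.976). H4c14, with 79.5% of its window to itself, rose in TE by 1.17 ± 0.24 in M (adjusted p = 0.0284) and 1.57 ± 0.33 in BM (adjusted p = 0.0178). H4c6 was the other H4 gene called in BM (TE 1.98, adjusted p = 0.0709), and it entered only through its BM counts. H4c16, 98.4% unique and picked for that after its values were seen, rose by 2.00 ± 0.33 for RPFs in BM (adjusted p = 0.000493), and its TE difference of 1.36 ± 0.46 was not called (adjusted p = 0.243).

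Copies with and without a sequence of their own both rose. Among genes that passed on WT counts in BM at day 4, 7 of 8 without a unique 30-base sequence and 16 of 17 with one were called higher in RPFs, beside 27.1% of all genes. TE calls were 4 of 8 and 7 of 16, beside 1.66%. A gene counted as having a sequence of its own however few it held. In H4c2 these were 1.6% of its 30-base sequences, in H4c1 4.7% and in H4c8 6.3%. The split therefore cannot show whether shared reads carried the rise.

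In B livers at day 4 few histone genes moved. RPFs rose for 3 of 29 tested genes (H1f1, H3c14 and H3c2) and fell for 1 (H1f2), beside 6.23% and 6.3% of all genes (2 and 1 of the 24 that passed on WT counts), and both counts were 0 when all 24 mice were fitted together. H1f1 rose by 1.31 ± 0.25 (adjusted p = 0.00818) and H3c14 by 0.64 ± 0.14 (adjusted p = 0.0144). The H1 sum fell by 0.24 (adjusted p = 0.0887), a call lost with DESeq2 (adjusted p = 0.176), in the fit of all 24 mice (adjusted p = 0.778) and in 5 of 6 leave-one-out fits. With H1f2 left out of the sum, it was −0.09 (adjusted p = 0.596), and with scaling by total alone −0.13. H3 RPFs were 46.5, 53.9 and 48.6 CPM in B, above every WT mouse, and differed by 0.32 (adjusted p = 0.145), a difference called with scaling by total alone (0.43, adjusted p = 0.0519) and without WT mouse 3 (0.42), and 0.20 without WT mouse 2. No RNA or TE call was made (edgeR; 2 of 52 and 4 of 28 genes at an unadjusted p under 0.05), and DESeq2 made none either.

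BM livers at day 4 exceeded M livers in RPFs of 25 of 38 tested genes, beside 19.2% of all genes called higher (24 of the 35 that passed on their M counts). This count lay between 18 and 31 when single mice were left out. RNA rose for 11 of 53, beside 15.3%, among them H1f1, H1f2 and H1f3, and this count ran from 4 without M mouse 2 to 25 without BM mouse 2. The H3 sum was higher by 1.14 ± 0.24 (adjusted p = 0.00604), H1 by 0.69 ± 0.17 (adjusted p = 0.0144), H2A by 0.65 ± 0.18 (adjusted p = 0.0223) and H2B by 0.57 ± 0.19 (adjusted p = 0.052). The H2B call was lost with DESeq2 (adjusted p = 0.147) and without BM mouse 1 (0.30) or M mouse 3 (0.47), and without BM mouse 1 the H2A difference was 0.40 and that of H1 0.44, both still called. H4 RPFs differed by 0.34 ± 0.16 (adjusted p = 0.134), with groups that overlapped, and were called with DESeq2 (adjusted p = 0.0824), with scaling by total alone (0.55, adjusted p = 0.0309) and without BM mouse 2 (0.50), while without BM mouse 1 the difference was 0.13. No TE difference between BM and M was called by edgeR (13 of 38 genes at an unadjusted p under 0.05), whereas DESeq2 called 2 and the mouse block 13, and with that block the H3 sum (1.03, adjusted p = 1.3e-05), the H2A sum (0.46, adjusted p = 0.0125) and the H2B sum (0.45, adjusted p = 0.0833) were called. The shares of all genes called by DESeq2 and with the block are not given here.

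By day 10 the order of the genotypes had changed. H3 RPFs were 68.6, 89.5 and 45.3 CPM in WT, 117, 124 and 172 CPM in B, 85, 95.8 and 241 CPM in M and 72.9, 73.3 and 76.3 CPM in BM. B lay above WT in every mouse, M was spread widely because 1 mouse was high, and BM lay within the WT range. H3 RPFs rose by 1.01 ± 0.24 in B (adjusted p = 0.0198), whereas the differences were 1.05 ± 0.39 in M (adjusted p = 0.121) and 0.12 ± 0.23 in BM (adjusted p = 0.714). The M difference was called in the fit of all 24 mice (1.05, adjusted p = 0.0336), with scaling by total alone (1.28, adjusted p = 0.058) and without M mouse 1 (adjusted p = 0.0873), and it fell to 0.42 without M mouse 3 (adjusted p = 0.217). H2A RPFs differed by 0.50 in M (adjusted p = 0.11) and were called with DESeq2, in the fit of all 24 mice, with scaling by total alone and without H2ac11 (adjusted p = 0.0339 to 0.0967), while without M mouse 3 the difference was 0.26. B and M were not tested against each other.

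The H1 and H2A sums rose in B at day 10 as well. H1 RNA rose by 1.16 ± 0.20 (adjusted p = 0.00346) and H1 RPFs by 0.54 ± 0.13 (adjusted p = 0.0212), the latter call being lost with H1f2 left out of the sum (0.21, adjusted p = 0.243) and without WT mouse 3 (0.44). H2A RPFs rose by 0.53 ± 0.11 (adjusted p = 0.0141).

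In B at day 10, RPFs rose for 18 of 36 tested genes and fell for 3, beside 13.3% and 12% of all genes (13 and 3 of the 30 that passed on WT counts). The 18 became 10 without WT mouse 1 and 8 without WT mouse 3. Those named were H1f1 (1.82), H1f2 (0.99), H3c2 (1.97), H3c14 (1.20), H2bc14 (1.42) and H2ac11 (0.65), while H1f4 and H4c8 fell (by 0.59 and 0.49). H1f4 RPFs were 51.9, 51.3 and 49.5 CPM in WT and 33.6, 34 and 34.7 CPM in B, without overlap (adjusted p = 0.00351). RNA rose for 3 of 53, beside 8.01%, all of them H1 genes (2 of the 52 that passed on WT counts, without H1f1), and H1f2 RNA went from 63.1, 58.4 and 51.4 CPM in WT to 214, 195 and 104 CPM in B (1.58 ± 0.23, adjusted p = 0.0014). No TE change was called by edgeR (16 of 36 at an unadjusted p under 0.05). DESeq2 called 1 higher, and the mouse block 10 higher and 2 lower, with an H3 TE difference of 0.90 (adjusted p = 0.00691) and an H1 TE difference of −0.59 (adjusted p = 0.0184).

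In M at day 10, RPFs of 5 of 34 tested genes rose, beside 10.8% of all genes, and RNA of 1 of 53, beside 8.71%: H1f1, by 1.91 ± 0.52 and 1.93 ± 0.47. Of those that passed on WT counts, 4 of 29 rose in RPFs and 0 of 52 in RNA, as H2bc11 RPFs and H1f1 RNA entered only through their M counts. H3c2, H3c14, H2bc11 and H2ac25 were the others in RPFs. M mouse 3 stood above the other M mice in each core class (H2A 268 against 171 and 172 CPM, H4 317 against 250 and 227 CPM). The count of 5 was 0 without WT mouse 1 or 3 and 3 without WT mouse 2 or M mouse 3. TE calls numbered 0 by edgeR and by DESeq2 (4 of 34 at an unadjusted p under 0.05 by each).

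In BM at day 10, RPFs rose for 2 of 31 tested genes and fell for 7, beside 24.3% and 22.4% of all genes, and RNA rose for 1 and fell for 3 of 53, beside 22.9% each (2 and 7 of 29, and 1 and 3 of 52, that passed on WT counts). With scaling by total alone, RPFs rose for 8 and fell for 4, and RNA rose for 30 and fell for none. That scaling moved the median of all genes by 0.41 for RPFs and 0.43 for RNA. H1 genes moved apart from each other. H1f2 RPFs were 68, 63.1 and 51.5 CPM in WT and 58, 134 and 211 CPM in BM, with BM mouse 1 inside the WT range, and they rose by 1.13 ± 0.41 (adjusted p = 0.0618). H1f4 fell to 25.8, 12.1 and 12.2 CPM, by 1.62 on the log2 scale for RPFs (adjusted p = 0.00483) and 0.62 for RNA (adjusted p = 0.027). H3c2 was the other gene that rose (0.82, adjusted p = 0.0919), and neither of the 2 rises was called without WT mouse 3 or BM mouse 2 or 3. H4 RPFs were 265, 226 and 208 CPM in WT and 161, 129 and 127 CPM in BM, without overlap, and fell by 0.76 (adjusted p = 0.0109). H2B RPFs fell by 0.54 (adjusted p = 0.0254). Both calls were lost with scaling by total alone (−0.38 and −0.17). TE calls numbered 0 by edgeR and DESeq2 (7 of 31 at an unadjusted p under 0.05 by each) and 3 lower with the mouse block, which also called the H2B TE sum (−0.67, adjusted p = 0.093). BM mouse 1 of this day had the lowest core histone RNA of its group (H3 387 against 656 and 645 CPM), and without it 10 TE values were called lower and 19 RNA values higher.

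The effect of BM against WT differed between the days, tested as the difference of the differences. For RPFs, 34 of 37 tested genes had a lower effect at day 10 than at day 4 and none a higher one, beside 18.7% of all genes called lower. Since BM mice of day 4 alone could let a gene pass the count minimum, the count over the 30 genes that reached it in at least 3 of the 6 WT mice is given too, and 27 of these were lower. The H3 sum fell by 2.89 (adjusted p = 0.000431), H4 by 1.65 (adjusted p = 0.000524), H2B by 1.43 (adjusted p = 0.00218) and H2A by 1.19 (adjusted p = 0.00508). H1 differed by −0.80 ± 0.38 (adjusted p = 0.134), and with H1f2 left out of the sum by −2.23 (adjusted p = 0.000207). The whole H1 sum was called in the fit of all 24 mice (−0.79, adjusted p = 0.063), with scaling by total alone (−0.90, adjusted p = 0.0939) and without BM mouse 1 (−0.58) or 3 (−1.19) of day 10. Within H1, the effect on H1f1, H1f3 and H1f4 fell by 5.25, 1.60 and 2.35, and that on H1f2 differed by 0.94 ± 0.47 (adjusted p = 0.159). For RNA, 8 of 53 genes were lower (7 of the 52 that passed on WT counts), beside 17.1%, 5 of them H4 genes and 3 H1 genes, and the H4 sum fell by 0.55 (adjusted p = 0.0659), a call lost in 5 of 12 leave-one-out fits (−0.55 to −0.44). The H1 RNA sum differed by −0.44 (adjusted p = 0.338), and was called with H1f2 left out (−1.82, adjusted p = 0.000325) and without BM mouse 3 of day 10 (−0.74), while it was −0.20 without BM mouse 1 of day 10 and −0.25 without BM mouse 1 of day 4. For TE, 11 of 37 were lower (8 of the 29 that passed on WT counts), beside 0.266% of all genes: 5 H2B, 3 H3 and 3 H2A genes. H3 TE fell by 3.28 (adjusted p = 0.00504) and H2B TE by 1.72 (adjusted p = 0.0838). The H2B TE call was lost in 9 of 12 leave-one-out fits (−1.88 to −1.48), with scaling by total alone (adjusted p = 0.177) and without the gene with most counts (adjusted p = 0.113). With the mouse block, H2A and H4 TE were called as well (−1.23 and −1.06, adjusted p = 0.0361 and 0.0343). The TE count was 23 with the mouse block, 17 with DESeq2, 27 without BM mouse 1 of day 10, and 7 without WT mouse 2 of either day or BM mouse 3 of day 10. The RNA count was 13 without WT mouse 2 of day 4. For M against WT the same test called no gene in RPFs, RNA or TE by edgeR (8, 1 and 6 at an unadjusted p under 0.05), and 16 RPF effects were called lower once M mouse 3 of day 10 was left out.

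Factors that make, process and deposit histones rose in BM livers at day 4 mostly in both libraries. Of 22 tested factors of histone mRNA synthesis and processing, 15 rose and 1 fell in RPFs, and 13 of 21 rose and 1 fell in RNA (27.1% and 23.3% of all genes were called higher), with no TE call by edgeR (1 of 21 at an unadjusted p under 0.05). Slbp, the stem-loop binding protein itself, went from 19.9 to 22.5 RPF CPM in WT to 23.9 to 33.5 in BM (0.51 ± 0.13, adjusted p = 0.00715) and rose by 0.40 ± 0.14 in RNA (adjusted p = 0.0419). Npat, the coactivator of histone gene transcription, and Lsm11, a U7 snRNP protein, rose by 0.86 and 0.98 in RPFs. Of 16 histone chaperones, 13 rose in RPFs and 11 in RNA (11 of 14 and 8 of 13 that passed on WT counts), none fell and none had a TE call by edgeR (4 at an unadjusted p under 0.05). Chaf1a and Chaf1b, of the CAF-1 complex that deposits H3 and H4 behind the fork, rose by 3.18 and 2.87 in RPFs and by 2.88 and 2.27 in RNA, where of these values only the Chaf1b RPFs passed on WT counts.

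Histone variants, most of which are made throughout the cell cycle, were mixed. In BM at day 4, RPFs of 6 of 10 tested rose and of 2 fell, beside 27.1% and 23.8% of all genes (4 and 2 of the 8 that passed on WT counts). Cenpa, the centromeric H3, and H2az1, of H2A.Z, rose by 3.11 and 1.69 in RPFs and by 2.83 and 1.14 in RNA. H3f3a and H3f3b, which encode the replacement histone H3.3, fell by 0.21 and 0.39 in RPFs (adjusted p = 0.0808 and 0.0259). Both falls are smaller than the 0.42 by which scaling by total alone moved the median RPF change of all genes. TE was called higher for 2 of 10, beside 1.66% of all genes: H2ax (1.80 ± 0.36, adjusted p = 0.0154) and H1f10, an H1 variant (3.03 ± 0.53, adjusted p = 0.00581). Cenpa and H1f10 did not pass on WT counts and could enter only by rising, and of the 8 that passed, 1 had a TE call. H2ax is the variant that had a histone stem-loop in the search above, and the search found none in H1f10.

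A list of 17 S-phase genes (cyclins, MCM helicase subunits, nucleotide synthesis) rose mostly in both libraries. In BM at day 4, RPFs of 16 of 17 rose and RNA of 15, and TE of 9 rose and of 1 fell (E2f1, −1.59, adjusted p = 0.0368), beside 27.1%, 23.3% and 1.66% of all genes called higher and 0.542% called lower in TE. Of those that passed on WT counts, 13 of 14 rose in RPFs, 13 of 15 in RNA and 8 of 13 in TE, and E2f1 was not among the last. In M, TE rose for 8 of 16, beside 0.879%, or 7 of 13. Mcm3, a helicase subunit, rose in TE by 1.43 ± 0.26 in M (adjusted p = 0.0136) and 1.81 ± 0.26 in BM (adjusted p = 0.00131). A raised TE at day 4 was thus not limited to histone genes. Between groups, the sums of S-phase RPFs and of H3 RPFs were both highest in BM at day 4. BM mouse 1 of day 4 was highest in both (1315 and 470 CPM), and M mouse 3 of day 10 (709 and 241 CPM) exceeded its group mates (343 and 386, and 85 and 95.8 CPM). In 5 of the 8 groups (B and BM at day 4, and WT, B and M at day 10) the mouse with most S-phase RPFs also had most H3 RPFs. Within WT and M at day 4 and BM at day 10, the mouse with most S-phase RPFs had the fewest H3 RPFs (223 and 32.5, 575 and 128, and 317 and 72.9 CPM). In RNA, WT mouse 2 of day 4 had 336 CPM of S-phase RNA and 647 CPM of H3 RNA, and BM mouse 1 of day 4 had 901 and 514 CPM. These points share libraries and their scaling, and no correlation was tested.

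**Figure D5:**
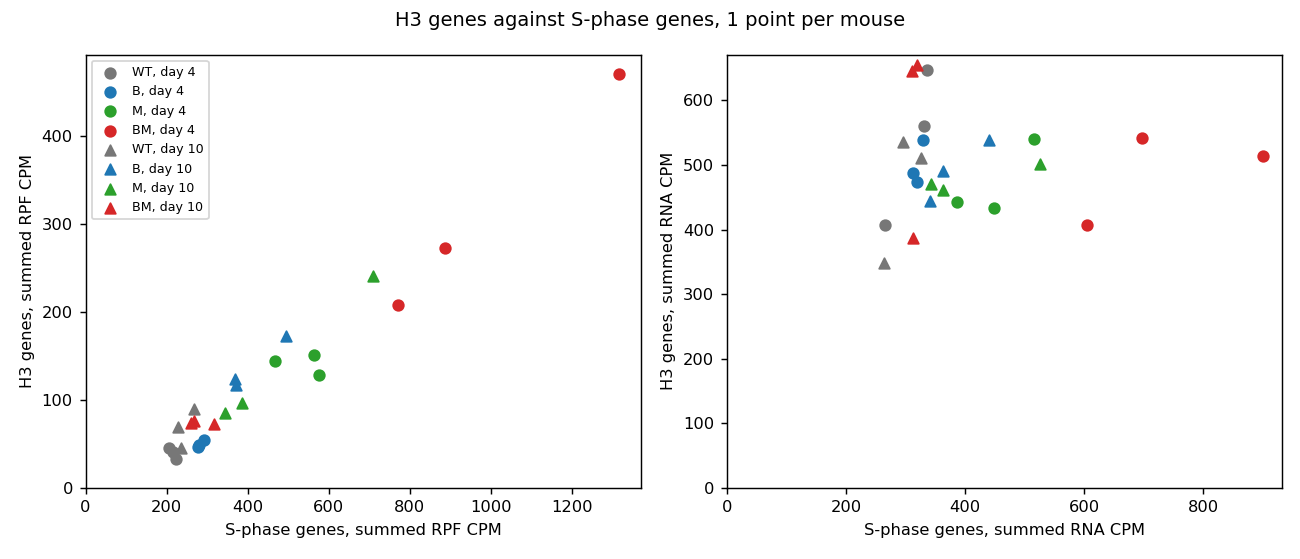
Summed CPM of 10 H3 genes (vertical) against summed CPM of 17 S-phase genes (horizontal), RPFs on the left and cytoplasmic RNA on the right, 1 point per mouse, coloured by genotype with circles for day 4 and triangles for day 10. In RPFs the WT mice (207 to 267 and 32.5 to 89.5 CPM) lie at the low end and BM mouse 1 of day 4 (1315 and 470 CPM) at the high end, while in RNA the H3 sums of WT and BM mice overlap.

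Cell type markers also moved between the groups. The 6 hepatocyte markers, all measured, summed to at least 28903 RNA CPM in every mouse, with 78200 to 86541 in day 4 WT mice and 29302 to 36836 in BM. Other markers, 6 of 6 measured unless stated, gave RNA sums in day 4 WT against BM mice of 229 to 282 against 95.6 to 121 CPM for Kupffer cells, 359 to 383 against 228 to 265 CPM for endothelial cells, 440 to 461 against 230 to 285 CPM for stellate cells, and 105 to 186 against 80.2 to 117 CPM for cholangiocytes (5 of 5). Erythroid markers summed to 469 to 496 CPM in WT and 185 to 266 CPM in BM at day 4, and to 177 to 755 CPM in BM at day 10. Lymphocyte markers, 5 of 6 measured, summed to 0.655 to 1.21 CPM in WT and 0.518 to 1.27 CPM in BM. In M at day 4 the RNA sums were 141 to 446 CPM for Kupffer cells, 244 to 334 CPM for endothelial cells, 320 to 393 CPM for stellate cells and 250 to 337 CPM for erythroid cells, so that the last 3 lay below WT and the Kupffer sum was spread on both sides of it. Those of M were 101 to 120 CPM for cholangiocytes, 1.31 to 2.37 CPM for lymphocytes, above WT, and 46899 to 64272 CPM for hepatocytes. At day 4, the Kupffer, endothelial, stellate and erythroid sums of BM lay below those of WT, and the cholangiocyte and lymphocyte sums overlapped. At day 10, the endothelial RNA sums were 400.0 to 428 CPM in WT and lower in B (291 to 354), M (270.0 to 304) and BM (248 to 311), and the stellate sums were 483 to 560 CPM in WT and lower in B (235 to 290.3), M (352 to 384) and BM (198 to 240.1). Erythroid sums were 462 to 740 CPM in WT, 236 to 410 CPM in M, below WT, and 625 to 816 CPM in B. Kupffer sums were 222 to 264 CPM in WT, 269 to 320.0 CPM in BM, above WT, and overlapped WT in B and M, and cholangiocyte and lymphocyte sums overlapped WT in all 3 genotypes. Hepatocyte sums at day 10 were 83481 to 85783 CPM in WT and 28903 to 44507 CPM in the other genotypes. The part of these cells in the histone values was not tested.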

How the data were processed

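RPFs and cytoplasmic RNA of 24 mouse livers were analysed from the deposited tables. For the RPF counts, the authors trimmed reads with Cutadapt 1.18, removed PCR duplicates by UMI, aligned to the most abundant transcript per gene of GENCODE vM27 (GRCm39) with BBmap, and counted reads of 30 to 38 bases in the coding sequence. For RNA, the authors aligned reads with Bowtie2 2.3.5.1 and obtained expected counts with RSEM 1.3.3; these were rounded and summed per gene. The deposited TPM values were not used.

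Counts were tested with edgeR 4.0.16 in R 4.3.3 (quasi-likelihood, TMM within each library type, filterByExpr with a minimum count of 10 and a total of 15). P-values were adjusted by Benjamini-Hochberg over all genes and 5 class sums, and called under 0.1. TE was the interaction of genotype and library type, fitted without a mouse term, and TE counts come from this fit unless stated. DESeq2 1.42.0, RLE size factors, no filter, a replicate block, 1 fit over all mice, a threshold of 0.05, scaling by total counts and leaving out each mouse were alternatives. Shares of all genes come from the reported fit. Counts from the alternatives have no such share beside them, so they do not show whether histone genes stood out there. Scripts were tested on simulated data. The 2 libraries of a mouse deviated together (r from 0.298 to 0.674 in 24 of 24 mice over 7186 genes), and come from the same animal, so the mouse block is a true pairing for TE.

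Named genes were the 3 highest by RPF and 2 highest by RNA in each class, the leading TE calls of each comparison, H2ac10, H2bc7 and 16 pathway genes. H1f1, H2bc9, H2bc21, H2bc27, H4c6, H4c16, H1f10, Mcm3 and E2f1 were named after their values were seen, as were genes named to list a count of 5 or fewer. Members and lists were chosen with earlier results of these data known. Low counts (at most 3 reads in each WT mouse) are given for H2ac10, H2bc7 and H2bc9 as ratios with exact binomial 95% intervals, which cover counting error only. For other genes they are given as counts alone. Symbols were mapped through GENCODE vM39. Counted transcripts were found there by ID for 16249 of 16269, and 4058 had the same version, so windows can differ from those counted.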

Additional observations from a re-analysis of the deposited data

Results flagged for a closer look

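The effect of BM against WT differed between day 4 and day 10, by a test of the difference itself. It was lower at day 10 for 34 of 37 tested histone genes in RPFs, 8 of 53 in RNA and 11 of 37 in TE, beside 18.7%, 17.1% and 0.266% of all genes. Some genes reached the count minimum through BM mice of day 4 alone, and of those that reached it in at least 3 of the 6 WT mice, 27 of 30, 7 of 52 and 8 of 29 were lower, so that the RNA share did not exceed that of all genes. For the class sums, the difference in RPFs was −1.19 (log2) for H2A, −1.43 for H2B, −2.89 for H3 and −1.65 for H4. In RNA it was −0.55 for H4, and in TE it was −1.72 for H2B and −3.28 for H3. The H2B TE call was lost with scaling by total alone (adjusted p = 0.177), without the gene with most counts (adjusted p = 0.113) and in 9 of 12 leave-one-out fits. With the mouse as a block, TE was called for H2A (−1.23, adjusted p = 0.0361) and H4 (−1.06, adjusted p = 0.0343) too. No test for single outlying mice was run in groups of 3 mice, and mice that stood apart are named in the results above.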

How the results depend on the processing

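Counts of histone genes called are given from the reported value to the alternative. DESeq2 moved RNA higher in BM at day 4 from 13 to 6 and against M from 11 to 6, TE higher in B at day 10 from 0 to 1 and in BM against M from 0 to 2, and TE lower for the BM effect between days from 11 to 17. Fitting all 24 mice together moved, in B at day 4, RPF higher from 3 to 0 and lower from 1 to 0; in M at day 4, RPF lower from 1 to 0, RNA lower from 2 to 1 and TE higher from 17 to 6; RNA higher in BM at day 4 from 13 to 8, in B at day 10 from 3 to 5 and in BM against M from 11 to 5; RPF higher in M at day 10 from 5 to 10; in BM at day 10, RPF higher from 2 to 1, RNA lower from 3 to 7 and TE lower from 0 to 3; and for the BM effect, RPF higher and RNA higher from 0 to 1. Without a filter, RNA higher went from 0 to 1 in B at day 4, 13 to 21 in BM at day 4 and 0 to 1 for the BM effect, and RNA lower from 2 to 4 in M and 1 to 6 in BM at day 4 and 0 to 1 for the M effect. A threshold of 0.05 moved RPF lower in M at day 4 from 1 to 0, RNA higher in BM at day 4 from 13 to 8 and against M from 11 to 6, RPF higher in M at day 10 from 5 to 0, and RPF and RNA higher in BM at day 10 from 2 and 1 to 0.

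Scaling by total alone moved RPF lower from 1 to 0 in B and in M at day 4, from 3 to 1 in B and from 7 to 4 in BM at day 10; RPF higher from 5 to 15 in M and from 2 to 8 in BM at day 10; RNA higher from 5 to 23 in M, 13 to 46 in BM and 11 to 35 in BM against M at day 4, and from 3 to 13 in B, 1 to 4 in M and 1 to 30 in BM at day 10; RNA lower from 2 to 0 in M and 1 to 0 in BM at day 4, from 3 to 0 in BM at day 10 and from 8 to 13 for the BM effect. It turned RNA differences in BM at day 4 to 0.39 for the H2B sum, 0.41 for the H3 sum, 0.40 for H2ac18, 0.41 for H2ac20, 0.39 for H2ac25, 0.22 for H2bc4, 0.50 for H2bc8 and 0.34 for H4c14, and that of H2ac18 in M to 0.30. Leaving the gene with most counts out of the H1 sum turned its BM difference at day 10 from 0.26 to −0.66 in RPFs and from 0.38 to −0.49 in RNA.

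With the replicate block, which is the mouse for TE and only a shared number for RPFs or RNA alone (11 of 42 same-numbered pairs of mice had r over 0.1), TE calls went from 0 to 10 higher and 2 lower in B at day 10, from 0 to 3 lower in BM at day 10, from 0 to 13 higher in BM against M and from 11 to 23 lower for the BM effect. At day 4 they went from 17 to 20 higher in M and from 22 to 30 higher in BM. RPF higher went from 5 to 2 in M and from 2 to 0 in BM at day 10, RNA higher from 1 to 2 there and from 0 to 1 for the BM effect.

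Leaving out single mice gave these ranges. In B at day 4, RPF lower was 0 to 2, RNA higher 0 to 1 and RNA lower 0 to 1. In M at day 4, RPF lower was 0 to 1, RNA higher 4 to 9, RNA lower 1 to 12 (12 without WT mouse 1) and TE higher 8 to 19. In BM at day 4, RNA higher was 5 to 25, RNA lower 1 to 9 (9 without WT mouse 1) and TE higher 15 to 23. In B at day 10, RPF higher was 8 to 18, RPF lower 1 to 6 and RNA higher 3 to 5. In M at day 10, RPF higher was 0 to 6 and RNA higher 0 to 3. In BM at day 10, RPF higher was 0 to 2, RPF lower 5 to 12, RNA higher 0 to 19, RNA lower 1 to 5 and TE lower 0 to 10, each highest without BM mouse 1. In BM against M, RNA higher was 4 (without M mouse 2) to 25 (without BM mouse 2). For the M effect, RPF lower was 0 to 16 and TE lower 0 to 3, highest without M mouse 3 of day 10. For the BM effect, RPF higher was 0 to 1, RNA higher 0 to 12 (12 without BM mouse 1 of day 10), RNA lower 7 to 13 and TE lower 7 to 27. The causes of these moves were not tested. RPF higher ran from 27 to 32 in M, 33 to 36 in BM and 18 to 31 in BM against M at day 4, and RPF lower for the BM effect from 33 to 35. Depth limits single copies, several with at most 3 RPFs in WT.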
